A study of Mus musculus with 4 samples.

Results

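The nuclear pore and nuclear transport genes described here were the gene rows whose symbol names a numbered nucleoporin (Nup), Tpr, an importin alpha or beta (Kpna, Kpnb), an importin (Ipo), an exportin (Xpo), a transportin (Tnpo), Ran, Rangap1 or a Ran-binding protein (Ranbp), and that had at least 40 counts over the 4 libraries. This rule gave 53 gene rows with 52 symbols, of 35927 rows with counts. Expression was measured by mRNA sequencing in C57BL/6 mouse fetal liver cells taken at E13.5, sorted as CD71+ (the transferrin receptor) and TER119- (a marker of later red cell precursors). The control group pooled embryos with the genotypes Rcor1+/+ and Rcor1+/-, and the mutant group was Rcor1-/-, which lacks a working copy of the gene for the CoREST scaffold protein. Each group had 2 libraries, described as biological replicates, and each library pooled RNA from several livers, so the spread between libraries does not show the spread between embryos. The mutation was not limited to erythroid cells by any label, and no label gives the proportion of heterozygous embryos in the control pools.

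Nuclear pores are the channels through the nuclear envelope. Outer and inner ring nucleoporins form their frame, phenylalanine-glycine (FG) nucleoporins fill the channel, and transport receptors of the importin beta family carry cargo through it. Direction comes from the small GTPase Ran, which is loaded with GTP in the nucleus by Rcc1 and made to hydrolyse it in the cytoplasm by Rangap1. Erythroblasts condense and expel their nucleus, and exportin 7 (Xpo7) is known from mouse erythroblasts as a receptor needed for that condensation and for moving nuclear proteins out.

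Depth came to 26892375 and 22817080 counts for control replicates 1 and 2, against 25186819 and 15053229 for the mutant pair. Rcor1 itself had 160 and 175 CPM in controls and 77.9 and 78.9 CPM in mutants (-1.09 ± 0.06 as a log2 fold change, adjusted p = 4.6e-11), where CPM are counts scaled to a library of 1000000 after the TMM correction of edgeR. Which exons the mutation removes is not stated in the labels, so the remaining counts check the labels by direction only. The 7 erythroid markers summed to 4693 and 4829 CPM in controls and 3217 and 3125 CPM in mutants, and none was at 0; all 7 fell. Summed markers of other cells were higher in mutants, but not every gene of each list. The 7 hepatoblast genes (6 rose) summed to 881 and 892 CPM in the control libraries against 1221 and 1231 CPM in the mutant ones. The 6 megakaryocyte genes (5 rose) summed to between 62.5 and 66.6 CPM against 238 to 250.5 CPM. The 5 stem and progenitor genes (4 rose) summed to between 193 and 197 CPM against 250 to 256 CPM. The 6 granulocyte genes summed to between 44.6 and 49.9 CPM against 78.7 to 80.3 CPM; Mpo and Prtn3 rose, Elane fell and 3 did not pass, with a median change of -0.26. The remaining lists summed to under 30 CPM in each library, namely 7 macrophage genes (2 rose), 6 endothelial genes (4 rose) and 6 mesenchymal genes (5 rose; Des was at 0 in control replicate 2). Lum, Pdgfra and Postn among the mesenchymal genes that rose, and Flt3 among the stem and progenitor genes, passed the filter on low counts only through their mutant level. The part of these cells in the results was not tested, and fewer cells of a type cannot be told apart from less RNA per cell.

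Under TMM scaling more of the pore and transport genes fell than rose in the mutant cells, mostly by modest amounts, while the exportin gene Xpo7 rose 2.7-fold. Each change is the log2 ratio of mutant to control with its standard error, and a gene is said to have risen or fallen where the Benjamini-Hochberg adjusted p of edgeR's quasi-likelihood test over all 13140 tested genes was under 0.05. All 53 members were tested, although Nup210l passed the filter on low counts only through its mutant level. Of the 53, 10 rose, 28 fell and 15 did not pass, against 28.3% of all tested genes that rose and 29.2% that fell. Among the 49 members with a mean of at least 20 CPM, 8 rose and 28 fell, against 21.8% and 44.8% of all genes that abundant. The counts of each gene group under TMM, given below, compare with these same shares. The median change of the members was -0.16 and that of all tested genes 0.01. The groups did not overlap for 48 members, which is 90.6% against 77.9% of tested genes. The 77.9% is not matched to the members for abundance. Whether the members differ in overlap from other genes of similar abundance was not tested. Of the members, 4 (Xpo7, Ranbp17, Nup210l and a second Ipo11 row) rose at least 1.5-fold, against 16.8% of tested genes. Another 2 (Ranbp10 and Rangap1) fell that much, against 6.69%, and the 6 together compare with 23.4%. These shares are not matched for abundance either. The median absolute log2 fold change was 0.28 for the members and 0.32 for all tested genes.

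**Figure D1:**
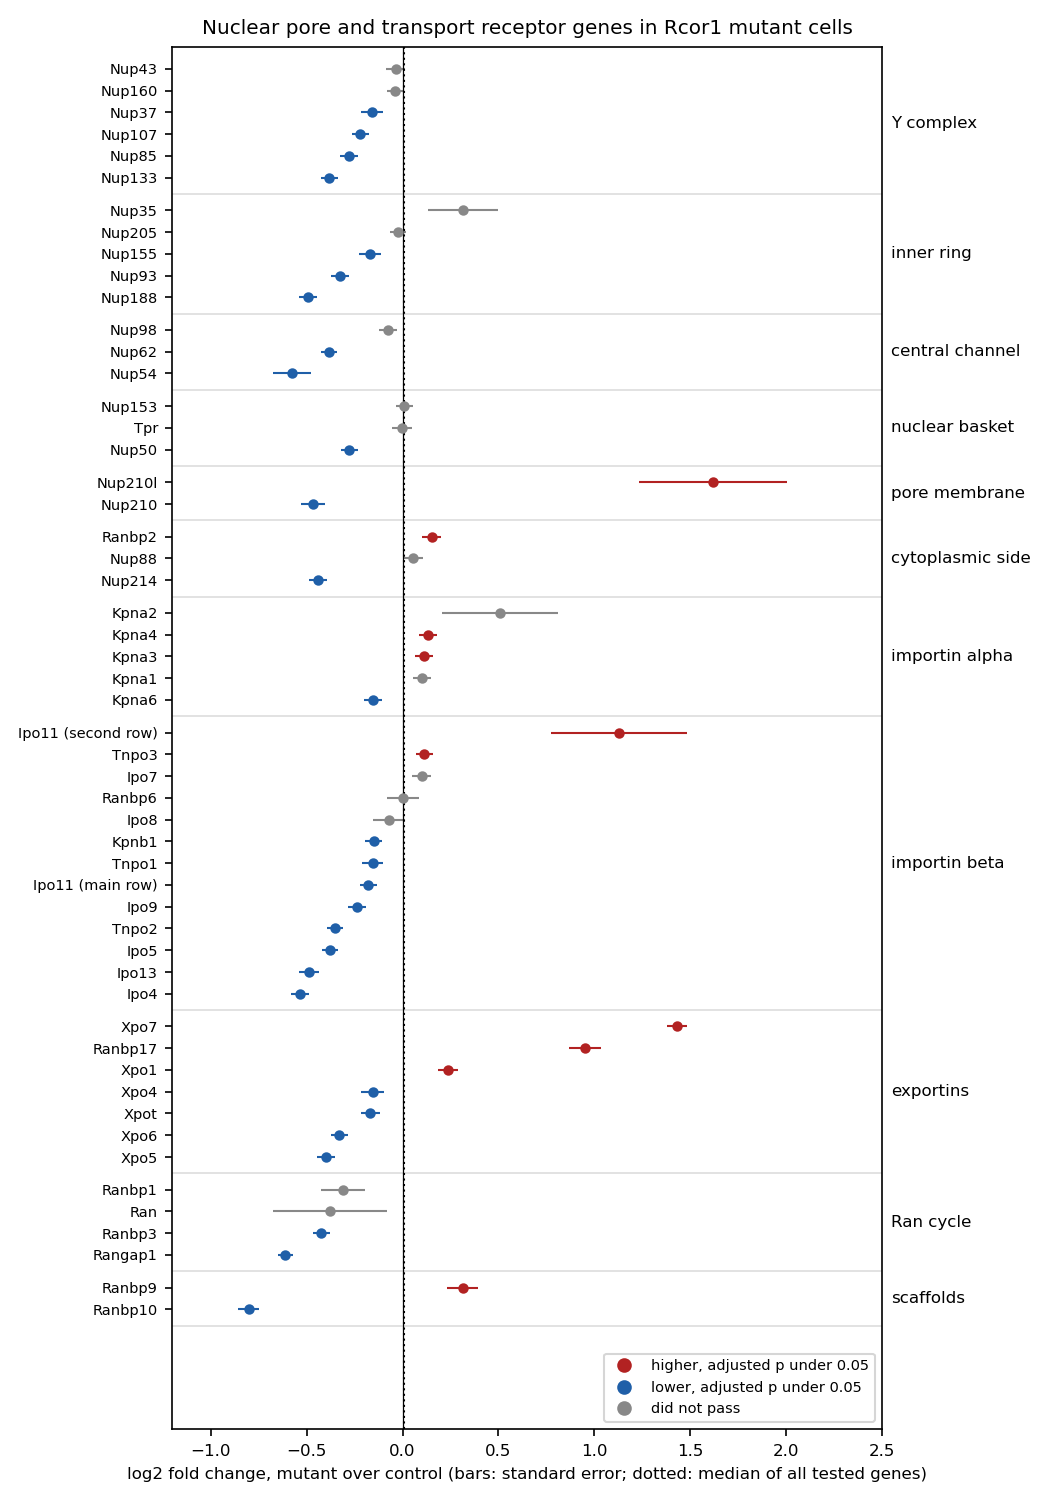
Change in mutants relative to controls (log2 fold change, x axis) with its standard error for all 53 members, grouped by role; red members rose, blue members fell and grey members did not pass. Xpo7 (1.43) and Ranbp17 (0.95) stand to the right of the other exportins, and Ranbp10 (-0.80) and Rangap1 (-0.61) farthest to the left.

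The balance of rises and falls moved with the scaling. When libraries were scaled by their totals and not by TMM, the median of all tested genes moved up by 0.136, 17 members rose and 18 fell, against 38.9% of all tested genes that rose and 19.4% that fell, and the members' median was -0.02. Upper quartile scaling gave 13 and 20, against 33.7% and 23.5%. Counts of each gene group under library totals compare with the same 38.9% and 19.4%. Relative to the median of all tested genes, the members' median was -0.17 under TMM, RLE, upper quartile and library total scaling. A scaling shifts all genes alike, so this distance could not change between them. It was -0.26 with no filter on low counts and -0.14 with a filter of CPM above 1 in at least 2 libraries. With each library left out it ran from -0.21 to -0.15. The authors' deposited table, whose median log2 fold change over its 13234 genes is 0.15, lists 14 members as higher and 18 as lower at an adjusted p under 0.05, against 4983 and 2338 of all its genes. Member values between -0.40 and 0.24 differ by over 1.5 times between TMM and library totals, and values are on the TMM scale unless another is named.

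**Figure D2:**
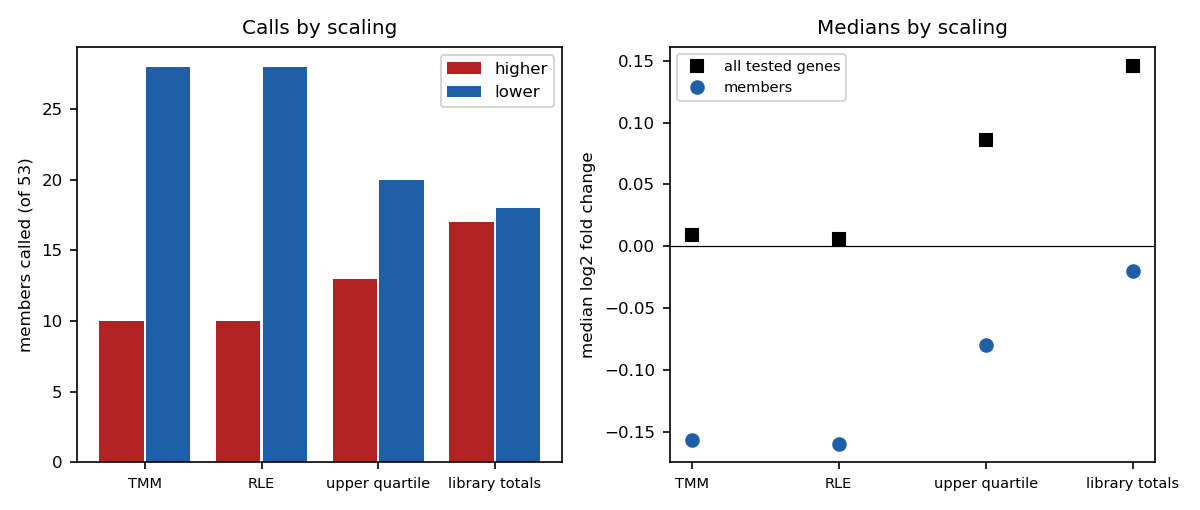
Left, members called higher (red) and lower (blue) in mutants, of 53, under 4 scalings; right, the median log2 fold change of all tested genes (squares) and of the members (circles). The calls run from 10 higher and 28 lower under TMM to 17 and 18 under library totals. The distance between the medians is 0.17 throughout because a scaling shifts all genes alike.

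Promoter sequences were available for 41 of the 52 symbols, as 48 windows from 250 bases before to 50 after the start (RefSeq, GRCm38.p6). Some symbols have 2 windows. Those of Ipo9 and those of Nup37 largely overlap, so the NRF1 core of Ipo9 and the ETS sites of Nup37 count in both. All windows of these genes also hold a CCAAT box, so each gene counts with 2 windows for CCAAT. An E-box (CACGTG), which Myc and related factors bind, was in 9 of the 48 (18.8%), against 10% of 10990 promoters of tested genes and 7.15% of all 32851. The CCAAT box was in 47.9% against 37.8% of tested genes' promoters. An E2F core (TTCCCGC) was in 10.4% against 8.23%, and an NRF1 core (TGCGCA) in 16.7% against 13.8%. The ETS family site CCGGAAG was in 16.7% against 17.2%. The erythroid Gata1 site searched (AGATAA) was in 4.17% against 6.72%. The core read by Gfi1 factors, searched as AAATCA, was in 8.33% against 8.27%. Both strands were searched and none of the motifs contains another; a match is a description and not a bound site. The windows printed here are those of Nup188 and Tnpo2, the members with 2 E-boxes each, of Rangap1, which fell, and of Ranbp17, which rose and whose window held none of these motifs; capitals mark the motifs, 5′ to 3′ on the gene's strand. They are at chr2:30286166-30286465 (plus strand), chr8:85036643-85036942 (plus), chr15:81729870-81730169 (minus) and chr11:33513704-33514003 (minus).
Nup188: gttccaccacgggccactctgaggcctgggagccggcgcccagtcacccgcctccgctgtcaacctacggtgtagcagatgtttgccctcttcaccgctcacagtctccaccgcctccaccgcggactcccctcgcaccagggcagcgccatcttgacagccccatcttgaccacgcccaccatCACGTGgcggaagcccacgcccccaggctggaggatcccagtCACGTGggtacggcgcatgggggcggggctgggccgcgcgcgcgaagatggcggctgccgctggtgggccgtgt
Tnpo2: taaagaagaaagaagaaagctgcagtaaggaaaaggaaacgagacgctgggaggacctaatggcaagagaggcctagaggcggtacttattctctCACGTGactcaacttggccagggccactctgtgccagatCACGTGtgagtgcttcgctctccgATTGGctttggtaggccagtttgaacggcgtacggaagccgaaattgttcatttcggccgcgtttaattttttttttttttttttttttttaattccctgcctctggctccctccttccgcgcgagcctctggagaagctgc
Rangap1: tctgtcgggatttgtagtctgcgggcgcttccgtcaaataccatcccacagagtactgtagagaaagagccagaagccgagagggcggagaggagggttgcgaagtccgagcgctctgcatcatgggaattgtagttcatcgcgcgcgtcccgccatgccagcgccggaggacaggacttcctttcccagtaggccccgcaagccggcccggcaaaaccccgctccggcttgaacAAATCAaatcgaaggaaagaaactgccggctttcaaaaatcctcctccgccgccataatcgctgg
Ranbp17: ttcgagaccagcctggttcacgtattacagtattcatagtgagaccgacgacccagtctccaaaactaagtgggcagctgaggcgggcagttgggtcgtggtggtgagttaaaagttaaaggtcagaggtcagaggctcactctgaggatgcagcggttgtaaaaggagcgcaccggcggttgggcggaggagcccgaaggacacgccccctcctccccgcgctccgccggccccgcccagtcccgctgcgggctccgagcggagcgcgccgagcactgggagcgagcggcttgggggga

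The exportins, which carry cargo out of the nucleus bound to Ran-GTP, moved apart from each other. Xpo7 had 108 and 110 CPM in controls and 280 and 307 CPM in mutants. Both mutant libraries were far above both controls, and the change was 1.43 ± 0.05 (2.7-fold, adjusted p = 5.29e-13). Ranbp17, a close relative of Xpo7, had 19.1 and 20.9 CPM in controls and 38.1 and 39.2 CPM in mutants. Its groups did not overlap either, and Ranbp17 rose by 0.95 ± 0.08 (1.93-fold, adjusted p = 4.53e-08). Xpo1, the general receptor for leucine-rich export signals, had 436 and 494 CPM in controls and 540 and 554 CPM in mutants, a rise of 0.24 ± 0.05 (adjusted p = 0.00159). The size of the Xpo1 rise rested on the controls and the scaling: it was 0.14 without control replicate 1 and 0.37 under library totals, with a call in both.

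The other exportins were lower. Xpo5, the receptor for precursor microRNAs, had 229 and 236 CPM in controls and 174 and 179 CPM in mutants (-0.40 ± 0.05, adjusted p = 1.39e-06). Xpo6, which exports actin, had 247 and 248 CPM in controls and 195 and 199 CPM in mutants (-0.33 ± 0.05, adjusted p = 7.97e-06). Both fell with no overlap of groups, and both kept their call under every alternative run. Xpot, the tRNA exportin, had 121 and 123 CPM in controls and 109 and 108 CPM in mutants (-0.17 ± 0.05, adjusted p = 0.00915). Xpo4, known to export the translation factor eIF5A, had 136 and 150 CPM in controls and 123 and 135 CPM in mutants (-0.16 ± 0.06, adjusted p = 0.0343). These last falls were small: under library totals Xpot had adjusted p = 0.62 and Xpo4 0.796, under upper quartile scaling 0.132 and 0.268, and without mutant replicate 1 they had 0.0628 and 0.368. Xpot also missed when mutant replicate 2 was left out (0.0695); Xpo4 missed with DESeq2 (0.0856), the exact test (0.0514) and the stricter filter (0.0724), and when control replicate 2 was left out (0.166).

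Within the summed counts of the exportins and Ranbp17, Xpo7 took 8.3% (8.01 to 8.6) and 7.93% (7.63 to 8.24) in controls. In mutants it took 19.2% (18.8 to 19.6) and 20.1% (19.6 to 20.7), with Wilson 95% intervals in brackets. Intervals cover counting error only. A share does not depend on scaling between libraries, and it was higher in both mutants than in both controls. Xpo5 took 17.7% (17.2 to 18.1) and 17.1% (16.7 to 17.5) in controls, and 11.9% (11.6 to 12.2) and 11.8% (11.4 to 12.2) in mutants. Part of this drop lies in the sum, which includes Xpo7. The sum was 1297 and 1381 CPM in controls and 1458 and 1522 CPM in mutants. With 2 libraries against 2, an exact permutation test cannot go below p = 0.33, so no test is given for shares. Per kilobase of the longest coding transcript (GENCODE M21), Xpo7 had a mean of 7.21 CPM in the controls against 19.4 CPM in the mutants, Xpo1 77.4 against 91.1 CPM, and Ranbp17 4 against 7.72 CPM. On this measure Xpo7 was below Xpot (20.3 against 18.2 CPM) and Xpo4 (16.5 against 14.9 CPM) in controls and above both in mutants. The longest transcript has 15121 bases for Xpo7, 6005 for Xpot and 8680 for Xpo4, so this order depends on which transcript is taken. Unscaled by length, the Xpo7 values in controls were nearer to those of Xpot and Xpo4. The unscaled mutant means were 293 CPM for Xpo7, 109 CPM for Xpot and 129 CPM for Xpo4. These lengths come from a later annotation than the counts.

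**Figure D3:**
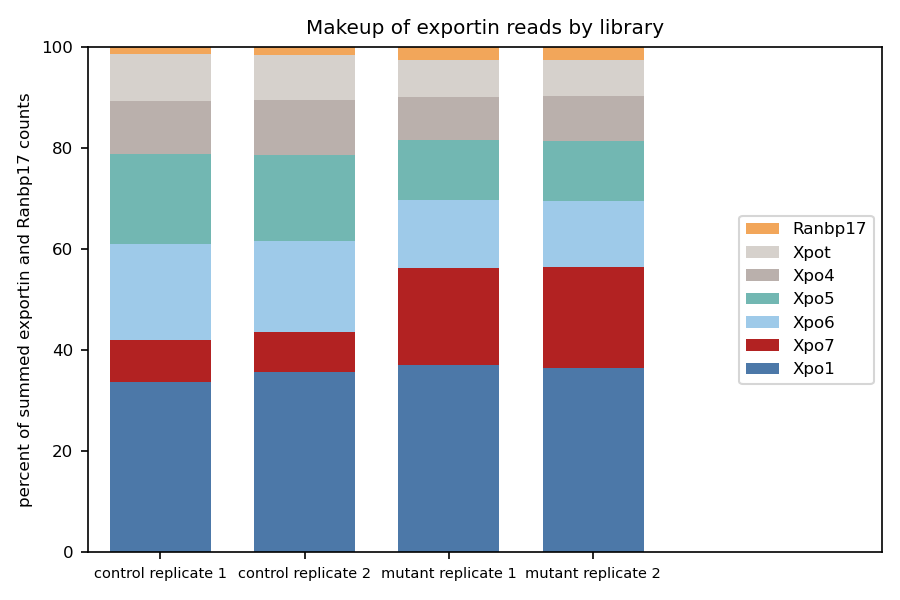
Percent of the summed counts of the exportins and Ranbp17 that each gene took, in each of the 4 libraries. The Xpo7 segment is 8.3% and 7.93% in controls and 19.2% and 20.1% in mutants.

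Of the 4 Ran cycle members, Rangap1 and Ranbp3 fell and Ran and Ranbp1 did not pass; 2 falls and no rise were also counted under RLE, upper quartile and library total scaling. Rangap1 had 634 and 634 CPM in controls and 415 and 415 CPM in mutants. Replicates nearly coincided, and the fall was 0.61 on the log2 scale (SE 0.04, adjusted p = 1.54e-09). Ranbp3, a cofactor of Xpo1, had 359 and 346 CPM in controls and 261 and 265 CPM in mutants (-0.42 ± 0.04, adjusted p = 3.47e-07). Rcc1, the exchange factor that loads Ran with GTP and which is outside the name rule, had 574 and 558 CPM in controls and 376 and 362 CPM in mutants (-0.62 ± 0.04, adjusted p = 2.57e-09). The genes that charge and discharge Ran thus both fell by about the same amount.

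Ran itself did not pass. It had 131 and 88.1 CPM in controls and 91.9 and 75.8 CPM in mutants, so that the groups overlapped (-0.38 ± 0.30, adjusted p = 0.4). The control libraries differed, and the change was -0.64 without control replicate 2 (adjusted p = 3.19e-21) and -0.07 without control replicate 1 (0.475). It also passed with edgeR's exact test (0.0168) and with the replicate number as a block (9.87e-15). Ranbp1, which helps Rangap1 to act on Ran, had 265 and 212 CPM in controls and 191 and 194 CPM in mutants. Its mutant libraries were below both controls, but the spread in controls left it at -0.31 ± 0.11 (adjusted p = 0.073). The value was -0.15 without control replicate 1 (adjusted p = 0.0205) and -0.48 without control replicate 2 (2.55e-15), and Ranbp1 also passed with no filter (4.16e-10), the exact test (0.00084), limma-voom (0.00566) and the replicate block (1.23e-14). Of the 36-base windows in their coding transcripts, 17.1% for Ran and 27.9% for Ranbp1 also occur in another annotated gene, so their counts depend on how shared reads were treated.

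Ranbp10 and Ranbp9 are scaffold proteins named for binding Ran rather than transport receptors, and they went in opposite directions. Ranbp10, which also binds beta-tubulin, had 156 and 152 CPM in controls and 92.3 and 84 CPM in mutants, the steepest fall among the members (-0.80 ± 0.06, adjusted p = 2.36e-09). Ranbp9 had 29.7 and 30.7 CPM in controls and 36.3 and 39 CPM in mutants and rose (0.31 ± 0.08, adjusted p = 0.00292). Both calls held under every alternative run.

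**Figure D4:**
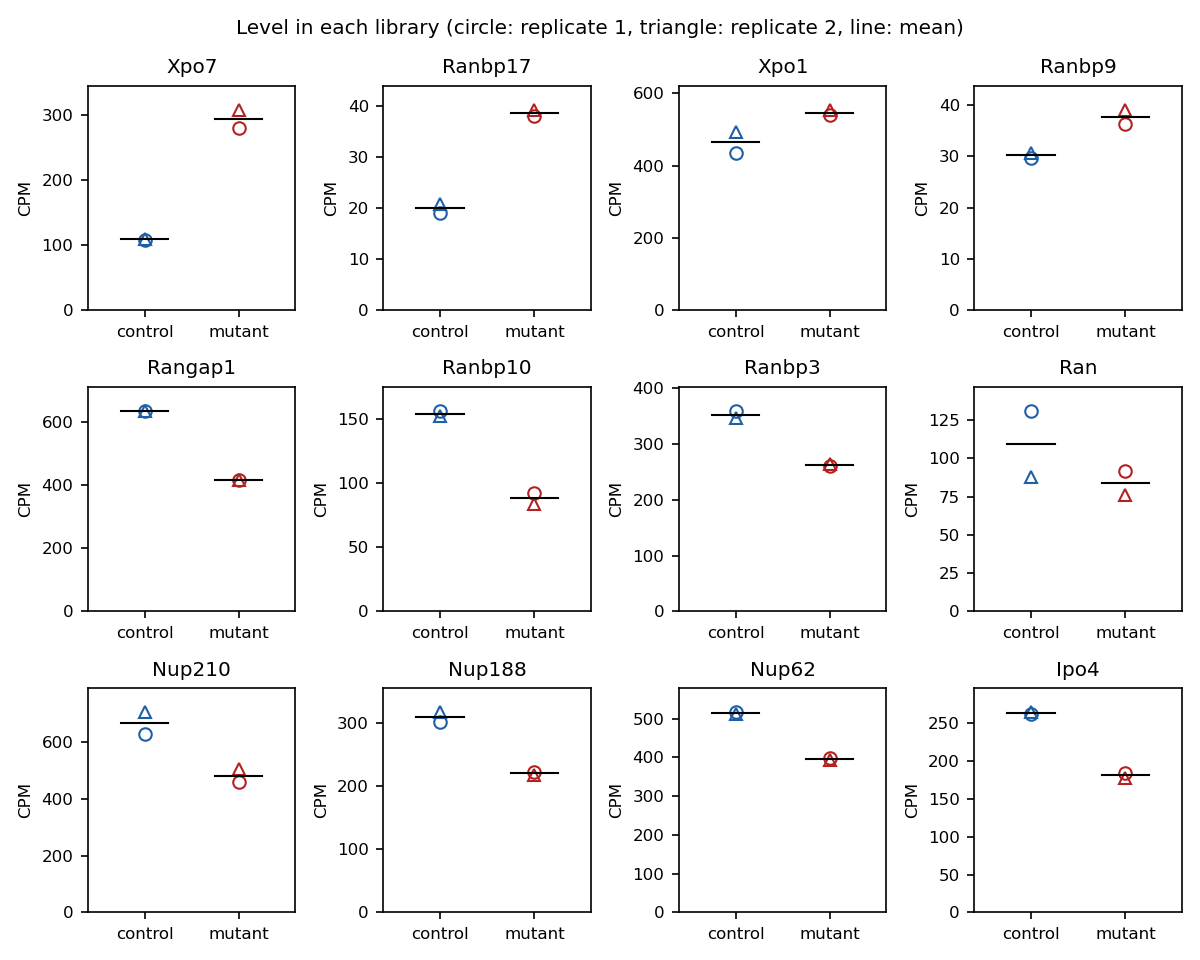
CPM (linear axes from 0) of 12 members in each library, with controls in blue, mutants in red, circles for replicate 1, triangles for replicate 2 and lines for means. Groups are apart in all panels but that of Ran, where control replicate 2 (88.1 CPM) lies below mutant replicate 1 (91.9 CPM).

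Import receptors of the importin beta family, 13 gene rows, gave 8 falls, 2 rises and 3 that did not pass, with a median of -0.16; under library totals 4 fell and 3 rose. Ipo4, which carries histones and ribosomal proteins, had 262 and 265 CPM in controls and 185 and 178 CPM in mutants (-0.54 ± 0.05, adjusted p = 3.47e-08). For Ipo4, 57.4% of windows recur in another annotated gene (Gm49378). Ipo13, which carries cargo in both directions, had 146 and 141 CPM in controls and 103 and 102 CPM in mutants (-0.49 ± 0.05, adjusted p = 3.4e-07). Ipo5, another receptor for histones and ribosomal proteins, had 561 and 570 CPM in controls and 434 and 436 CPM in mutants (-0.38 ± 0.04, adjusted p = 6.26e-07). These falls, and that of Tnpo2, held under every alternative run.

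Of the transportins, Tnpo2 and Tnpo1 fell and Tnpo3 rose slightly, and whether they differ from each other was not tested. Tnpo2, which imports RNA-binding proteins, had 449 and 463 CPM in controls and 354 and 360 CPM in mutants (-0.35 ± 0.04, adjusted p = 2.12e-06). Its relative Tnpo1 had 114 and 119 CPM in controls and 106 and 102 CPM in mutants, a smaller fall (-0.16 ± 0.05, adjusted p = 0.0182). For Tnpo1, 16.9% of windows recur in another annotated gene (Gm6493). Tnpo3, which imports splicing factors rich in serine and arginine, had 229 and 229 CPM in controls and 248 and 247 CPM in mutants (0.11 ± 0.04, adjusted p = 0.0358; 0.25 under library totals). The rise of Tnpo3 is weak evidence: it missed when any library was left out (adjusted p from 0.104 to 0.146), with no filter (0.239), with DESeq2 (0.114) and with the exact test (0.0531). Tnpo1 missed under library totals (0.774), upper quartile scaling (0.209) and DESeq2 (0.0668), and without control replicate 2 (0.0554) and mutant replicate 2 (0.175).

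Kpnb1, importin beta 1, which carries cargo held by importin alpha, was the most abundant import receptor per kilobase (194 CPM in control means and 175 CPM in mutant means). Unscaled by length it had 1117 and 1171 CPM in controls and 1008 and 1053 CPM in mutants (-0.15 ± 0.04, adjusted p = 0.00587). Kpnb1 missed under library totals (0.777) and upper quartile scaling (0.146) and without mutant replicate 1 (0.0988). Ipo9, a histone importer, had 234 and 237 CPM in controls and 194 and 204 CPM in mutants (-0.24 ± 0.05, adjusted p = 0.000307), and missed under library totals (0.0641). The main row of Ipo11 (ENSMUSG00000042590) had 252 and 258 CPM in controls and 228 and 222 CPM in mutants (-0.18 ± 0.05, adjusted p = 0.00266), and missed under library totals (0.444) and upper quartile scaling (0.0619).

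A second row with the symbol Ipo11 (ENSMUSG00000078933) held few counts, which were 18 and 11 in the controls against 29 and 27 in the mutants. It rose (1.13 ± 0.36, adjusted p = 0.0122), but missed with DESeq2 (0.11) and when control replicate 2 (0.0759) or mutant replicate 2 (0.107) was left out. The remaining import receptors did not pass. Ipo7 had 294 and 324 CPM in controls and 332 and 329 CPM in mutants (0.10 ± 0.05, adjusted p = 0.097), and passed as higher under library totals (0.24), under upper quartile scaling, with the replicate block and without control replicate 2. Its relative Ipo8 had 110 and 130 CPM in controls and 108 and 121 CPM in mutants (adjusted p = 0.511), and passed as lower without control replicate 1 (-0.20, adjusted p = 0.00632). Ranbp6 had 40.4 and 45.6 CPM in controls and 41.4 and 44.8 CPM in mutants (adjusted p = 0.987).

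Importin alpha proteins, the adaptors that recognise classical import signals, changed little. Of 5 genes, 2 rose, 1 fell and 2 did not pass, and under library totals and upper quartile scaling 3 rose and none fell. Kpna3 had 233 and 241 CPM in controls and 256 and 257 CPM in mutants (0.11 ± 0.04, adjusted p = 0.042; 0.25 under library totals). Kpna4 had 157 and 163 CPM in controls and 175 and 175 CPM in mutants (0.13 ± 0.05, adjusted p = 0.0257; 0.27 under library totals). Neither rise was firm. Kpna3 missed when any library was left out (adjusted p from 0.0668 to 0.257), with no filter (0.257), with the exact test (0.0631) and with DESeq2 (0.129). Kpna4 missed without control replicate 1 (0.168), mutant replicate 1 (0.1) and mutant replicate 2 (0.0954), with no filter (0.151) and with DESeq2 (0.0965). Kpna1 had 215 and 229 CPM in controls and 239 and 237 CPM in mutants, with no overlap, and did not pass (0.10 ± 0.05, adjusted p = 0.0716). It passed under library totals (0.24), upper quartile scaling, the stricter filter, the replicate block and without control replicate 2.

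Kpna6 was the importin alpha gene that fell, from 161 and 165 CPM in controls to 143 and 150 CPM in mutants (-0.15 ± 0.05, adjusted p = 0.0126). It missed under library totals (0.776) and upper quartile scaling (0.186) and without mutant replicate 1 (0.14). As a share of importin alpha counts, Kpna6 took 21% (20.4 to 21.5) and 20.7% (20.1 to 21.3) in the controls. In the mutants it took 17.6% (17.1 to 18.1) and 18.3% (17.6 to 18.9), with Wilson 95% intervals in brackets. Part of this drop lies in the sum of the importin alpha genes. That sum was 767 and 798 CPM in controls and 815 and 820 CPM in mutants. Kpna2, the importin alpha of proliferating cells, had only 28 and 18 counts in the controls against 34 and 24 in the mutants (adjusted p = 0.163). For Kpna2, 72.2% of windows recur in other annotated genes, among them Gm10184, so its deposited count may not show its level. Kpna7 was below the limit of 40 counts, with 0 and 0 in controls and 3 and 7 in mutants, as were Nup62cl with 18 counts in all and Ranbp3l with 4; the members nearest above it were Nup210l with 64 and the second Ipo11 row with 85.

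Among the 22 nucleoporins, with Tpr and Ranbp2 counted in, 12 fell, 2 rose and 8 did not pass, with a median of -0.16. Under library totals 9 fell and 7 rose, where 19.4% of all tested genes fell and 38.9% rose. In the Y complex, the outer ring on both faces of the pore, 4 of 6 fell and none rose, and under library totals 2 fell and none rose. Nup133 had 297 and 305 CPM in controls and 231 and 232 CPM in mutants (-0.38 ± 0.04, adjusted p = 1.17e-06). Nup85 had 572 and 533 CPM in controls and 442 and 469 CPM in mutants (-0.28 ± 0.05, adjusted p = 7.38e-05). Nup107 had 307 and 303 CPM in controls and 258 and 265 CPM in mutants (-0.22 ± 0.04, adjusted p = 0.000379), and missed under library totals (0.109). The mutant libraries were below both controls in each case. Nup37 had 91.6 and 88.5 CPM in controls and 79.5 and 81.9 CPM in mutants (-0.16 ± 0.06, adjusted p = 0.0231); it missed under library totals (0.749), upper quartile scaling (0.22), with DESeq2 (0.0822) and without control replicate 1 (0.138), mutant replicate 1 (0.19) or mutant replicate 2 (0.0667). Nup160 and Nup43 did not pass, at -0.04 ± 0.04 and -0.04 ± 0.05, although they belong to the same complex; whether they differ from Nup133 was not tested.

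In the inner ring 3 of 5 fell and none rose; under library totals 2 fell and 2 rose. Nup188 had 302 and 318 CPM in controls and 223 and 218 CPM in mutants (-0.49 ± 0.05, adjusted p = 8.56e-08). Nup93, which anchors the channel nucleoporins, had 310 and 310 CPM in controls and 240 and 256 CPM in mutants (-0.32 ± 0.05, adjusted p = 1.2e-05). Nup188 and Nup93 kept their calls under every alternative run. Nup155 had 208 and 237 CPM in controls and 194 and 202 CPM in mutants (-0.17 ± 0.06, adjusted p = 0.0213), and was -0.27 without control replicate 1; it missed without control replicate 2 (0.198), mutant replicate 1 (0.184) and mutant replicate 2 (0.0544) and under library totals (0.651) and upper quartile scaling (0.187). Nup205, the paralog of Nup188, had 458 and 457 CPM in controls and 450 and 452 CPM in mutants and did not pass (-0.02 ± 0.04); under library totals it passed as higher (0.11, adjusted p = 0.0234). Nup35 had 74 and 73 counts in the controls against 107 and 57 in the mutants (0.32 ± 0.18, adjusted p = 0.154), and 84.4% of its windows recur in another annotated gene; it passed under library totals (0.45, adjusted p = 0.044).

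Channel, basket and cytoplasmic nucleoporins were uneven. Nup62, the central FG nucleoporin, had 517 and 513 CPM in controls and 398 and 392 CPM in mutants (-0.38 ± 0.04, adjusted p = 6.1e-07). Its channel partner Nup54 had 33.8 and 27.6 CPM in controls and 20.5 and 20.9 CPM in mutants (-0.58 ± 0.10, adjusted p = 9.36e-05). Both fell without overlap of groups. For Nup54, 23.5% of windows recur in another annotated gene (Gm15790). Nup98, whose precursor also yields the Y complex protein Nup96, had 181 and 189 CPM in controls and 174 and 178 CPM in mutants (adjusted p = 0.189). In the nuclear basket, Nup50 had 267 and 272 CPM in controls and 222 and 223 CPM in mutants (-0.28 ± 0.04, adjusted p = 4.22e-05). The basket scaffold Tpr had 359 and 385 CPM in controls and 353 and 391 CPM in mutants, and Nup153 had 302 and 305 CPM in controls and 300 and 311 CPM in mutants. The groups of Tpr and Nup153 overlapped and neither passed (-0.003 ± 0.05 and 0.01 ± 0.04); both passed as higher under library totals (0.13 and 0.14).

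On the cytoplasmic face, Nup214 had 215 and 210 CPM in controls and 158 and 155 CPM in mutants (-0.44 ± 0.05, adjusted p = 4.47e-07). Its binding partner Nup88 had 174 and 166 CPM in controls and 177 and 176 CPM in mutants (0.06 ± 0.05, adjusted p = 0.328), and passed as higher under library totals (0.19) and upper quartile scaling (0.13). Ranbp2, the filament protein also called Nup358, had 463 and 513 CPM in controls and 531 and 555 CPM in mutants (0.15 ± 0.05, adjusted p = 0.015; 0.29 under library totals). It missed without control replicate 1 (0.284) and without mutant replicate 2 (0.123). The membrane-spanning nucleoporin Nup210 had 628 and 707 CPM in controls and 460 and 506 CPM in mutants (-0.47 ± 0.06, adjusted p = 7.41e-05). Its scarce paralog Nup210l had 8 and 9 counts in the controls against 30 and 17 in the mutants, and rose (1.62 ± 0.39, adjusted p = 0.00176; with DESeq2 0.0575).

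Genes of the same machinery outside the name rule were followed as lists. Under library totals, with which each list is also counted, 19.4% of tested genes fell and 38.9% rose. Of 10 other pore genes, 5 fell and none rose, with a median of -0.17; under library totals 3 fell and 3 rose. Pom121, a membrane anchor of the pore, had 202 and 193 CPM in controls and 141 and 131 CPM in mutants (-0.53 ± 0.05, adjusted p = 1.34e-07). Sec13, a Y complex member shared with secretory coats, fell by 0.39 on the log2 scale and Rae1, an mRNA export factor, by 0.37. Of 10 tested transport and Ran cycle genes, Rcc1 fell, Snupn, which imports spliceosomal particles, rose (0.62 ± 0.09) and 8 did not pass; under library totals 3 rose and 1 fell, and Rangrf had no counts. Of 16 mRNA export genes, 8 fell and 4 rose, among them Ddx39b (-0.52), Thoc5 (-0.42) and Thoc4 (-0.42) lower and Thoc2 (0.51), Nxt2 (0.33) and Ddx19b (0.18) higher; under library totals 6 fell and 8 rose. The calls of Nxt2 and Ddx19b were lost with DESeq2 (adjusted p = 0.208 and 0.103).

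Of 16 nuclear envelope and lamina genes, 8 fell and 2 rose, and under library totals 4 fell and 4 rose. These counts compare with the same shares of tested genes as the lists above. Lmna, which encodes the A-type lamins, had 695 and 673 CPM in controls and 411 and 406 CPM in mutants (-0.74 ± 0.04, adjusted p = 1.7e-10). Lemd2, an inner membrane protein that binds lamins, had 86.3 and 82.3 CPM in controls and 51.2 and 50.1 CPM in mutants (-0.74 ± 0.06), and emerin (Emd) fell by 0.33 on the log2 scale. Sun2, which links the lamina to the cytoskeleton, rose (0.66 ± 0.07), and its scarce partner Syne2 rose from under 1 CPM in both controls to 1.66 and 1.46 CPM in mutants (1.52 ± 0.34). Syne2, like Nup210l, passed the filter on low counts only through its mutant level.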

How the data were processed

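The authors deposited whole-number counts per gene, taken as raw because library totals differ, and a table of their own comparison, which per the file headers gives p-values and log2 ratios. Per the submitters' processing notes, FastQC, Bowtie, edgeR and mm9 were used; the counting of shared reads and the use of strand are not given in the sources used here. Columns named WT were taken as the controls by number. After 12 rows without values were left out, 35927 rows remained. edgeR 4.0.16 in R 4.3.3 (limma 3.58.1) kept 13140 genes with filterByExpr; TMM factors ran from 0.951 to 1.05. The quasi-likelihood test (robust, two-sided) compared 2 mutant with 2 control libraries. Its p-values set each change against the spread between these pools, which the fit estimates partly from all tested genes together. A gene's p-value thus does not rest on its own replicates alone. The common dispersion of 0.00232 (a coefficient of variation of 4.81%) lets small changes pass. Standard errors were recovered from the F statistic as |log2 ratio|/√F. Members, role lists and the rule for named genes were chosen with earlier results of these data known: values per library are given for the called members with the largest changes of each role, all importin alpha genes, Xpo7, Ran, Rangap1 and Rcc1, and members whose call changes under an alternative. Shared windows are 36-base stretches of coding transcripts (GENCODE M21) also found in another gene; 51 of the 53 member rows had a transcript. Alternatives were RLE, upper quartile and library total scaling, DESeq2 1.42.0, a filter of CPM above 1 in at least 2 libraries, no filter (beyond 1 count), the exact test, limma-voom, a replicate block, a limit of 400 counts and each library left out.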

Additional observations from a re-analysis of the deposited data

How the results depend on the processing

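Of the 38 members called, 22 kept direction and call in every alternative run (18 lower, 4 higher), 16 lost the call in at least 1, and none changed sign; of the 15 not called, 10 passed in at least 1. Library totals gave 17 higher and 18 lower, against 38.9% and 19.4% of all tested genes. The members' median was -0.020 under library totals, -0.080 under upper quartile scaling and -0.19 with no filter. The medians of all tested genes were then 0.15, 0.085 and 0.066. DESeq2 gave 5 members higher and 25 lower, against 20.7% and 24.3% of all tested genes. With each library left out, members called higher ran from 5 (without mutant replicate 2; 6 without control replicate 1) to 9, members called lower from 22 to 29, and the median from -0.19 (without control replicate 1) to -0.13. With any library left out, smaller shares of all tested genes were called higher and called lower than with all libraries. The member counts of those runs are to be read against these smaller shares. Genes called ran from 5917 with DESeq2 to 8402 with the replicate block, which gave 12 members higher and 30 lower. With that block 31.5% of all tested genes were called higher and 32.5% lower. The libraries share only a number, and deviations of same-numbered libraries correlated at 0.119. The limit of 400 counts gave 8 higher and 28 lower.

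Members with a value near 0 changed sign. Under upper quartile scaling and library totals the values were 0.073 and 0.13 for Tpr, 0.054 and 0.11 for Nup205, 0.0053 and 0.065 for Ipo8, 0.040 and 0.10 for Nup43, 0.039 and 0.10 for Nup160, and 6.6e-05 and 0.060 for Nup98. Tpr was 0.018 with CPM above 1 in 2 libraries, and Nup153 -0.030 with no filter. Ranbp6 was -0.0017 with RLE, -0.0014 with DESeq2 and -0.037 with no filter. With each library left out, Tpr ran from -0.072 to 0.072, Nup153 from -0.013 to 0.038, Ipo8 from -0.20 to 0.038 and Ranbp6 from -0.094 to 0.075. The cause was not tested, beyond the shift that each scaling applies to all genes. The members with fewest counts (Nup210l, the second Ipo11 row, Kpna2 and Nup35, with 64 to 311 in all) had standard errors from 0.18 to 0.39.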
